A study of Arabidopsis thaliana with 24 samples.

Results

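The genes described here are those whose response to titanium (Ti) can be compared between the 2 organs of the Arabidopsis seedling at 10 days. A gene was included when it was measured in both organs and its untreated level at 10 days was at least 5 CPM (read counts scaled to library size) in both. This left 12943 genes of the 18586 present in both tables, which hold 20336 genes for roots and 19495 for shoots. For each gene the organ difference is the log2 fold change (log2F.C.) with Ti in roots minus the log2F.C. with Ti in shoots, so a positive value means that Ti went with a relatively higher level in roots than in shoots. The floor of 5 CPM applied to the untreated groups alone. Just inside it was PIF5, with 5.001 CPM in Ctrl roots, and just outside it was NDA2, with 4.999 CPM in Ctrl shoots.

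Wild-type seedlings of the Col-0 ecotype were germinated on agar without Ti, then moved to plates with 2 mM TiO2 nanopowder (Ti) or without it (Ctrl), and RNA of pooled seedlings was sequenced. The 10 and 3 days are days of treatment counted from that transfer. At 10 days the groups are Ti roots, Ctrl roots, Ti shoots and Ctrl shoots, with 3 libraries each, and the same 4 groups were collected at 3 days. Both treatments shared the genotype and the phosphate-sufficient medium. The deposited log2 CPM values are identical in the 3 columns of every group, so each group gives 1 fitted value per gene. Differences between groups are therefore given as values with no p-value and no replicate spread, and no gene below is shown to differ beyond replicate error. The deposited values come without read numbers, so the depth behind a value was not examined, and roots and shoots were normalized separately. For that reason levels in the 2 organs are set side by side but not compared, and the comparison is between the changes within each organ.

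The libraries held the organs named by their labels. CA1, a leaf carbonic anhydrase, was at 0.226 CPM in Ti roots and 0.176 CPM in Ctrl roots, against 2371 CPM in Ti shoots and 2088 CPM in Ctrl shoots. IRT1, the iron transporter of the root epidermis, was at 170 CPM in Ti roots and 156 CPM in Ctrl roots, against 0.540 CPM in Ti shoots and 1.21 CPM in Ctrl shoots. RBCS1A and LHCB1.3 were measured in roots at 214 to 403 CPM, so the root libraries were not free of photosynthesis transcripts. In bulk organs, fewer cells of a type and less RNA per cell cannot be told apart.

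A plant meets a mineral in the medium with its roots, while its shoot receives what the root passes on, and the 2 organs also split many metabolic tasks. Sulfate is taken up by root transporters and is reduced to sulfide in plastids of both organs, and a set of sulfur-deficiency genes is switched on when reduced sulfur is scarce. Heat shock genes encode chaperones of the cytosol and organelles and are driven by heat shock factors, whereas proteins that enter the secretory pathway fold with a separate set of chaperones in the endoplasmic reticulum. Auxin controls elongation in both organs, and genes of the GH3, Aux/IAA and SAUR families are its classic early targets.

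The organ differences were centred near 0, with a median of -0.02 and a robust standard deviation (scaled from the median absolute deviation) of 0.27 on the log2 scale. An organ difference above 0.5 was found for 554 genes (4.28%), and one below -0.5 for 574 genes (4.43%), together 8.72%. Rescaling each group to the same total CPM over its table turned these counts into 678 and 455, and a floor of 20 CPM gave 265 and 194. The balance of the 2 directions thus depends on the scaling and on the floor. Beyond a limit of 1, there were 86 genes above (0.664%) and 40 below (0.309%). Across genes, the root and the shoot log2F.C. had a Pearson correlation of 0.29 and a Spearman correlation of 0.27 (n = 12943 genes, which are not independent replicates).

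Over all genes, 17.8% were higher and 20.2% lower by over 0.2 in Ti roots, and 19.3% were higher and 17.9% lower by over 0.2 in Ti shoots. These are shares of fitted values alone. They cover the genes that passed the floor, and no such share was computed for genes outside it. The study's own tests over replicates called many more genes in roots than in shoots at 10 days, and it reported more variation between replicates in shoots. Of the 554 genes above 0.5, 241 were higher by over 0.2 in roots and lower by over 0.2 in shoots, 137 were higher in roots with a shoot change within 0.2, and 145 were lower in shoots with a root change within 0.2. Of the 574 genes below -0.5, 187 were lower in roots and higher in shoots, 172 were lower in roots alone and 155 were higher in shoots alone. Changes of over 0.5 in opposite directions in both organs were seen for 24 genes. In 19 of them the root value was the higher one, and in 5 it was the lower one.

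**Figure D1:**
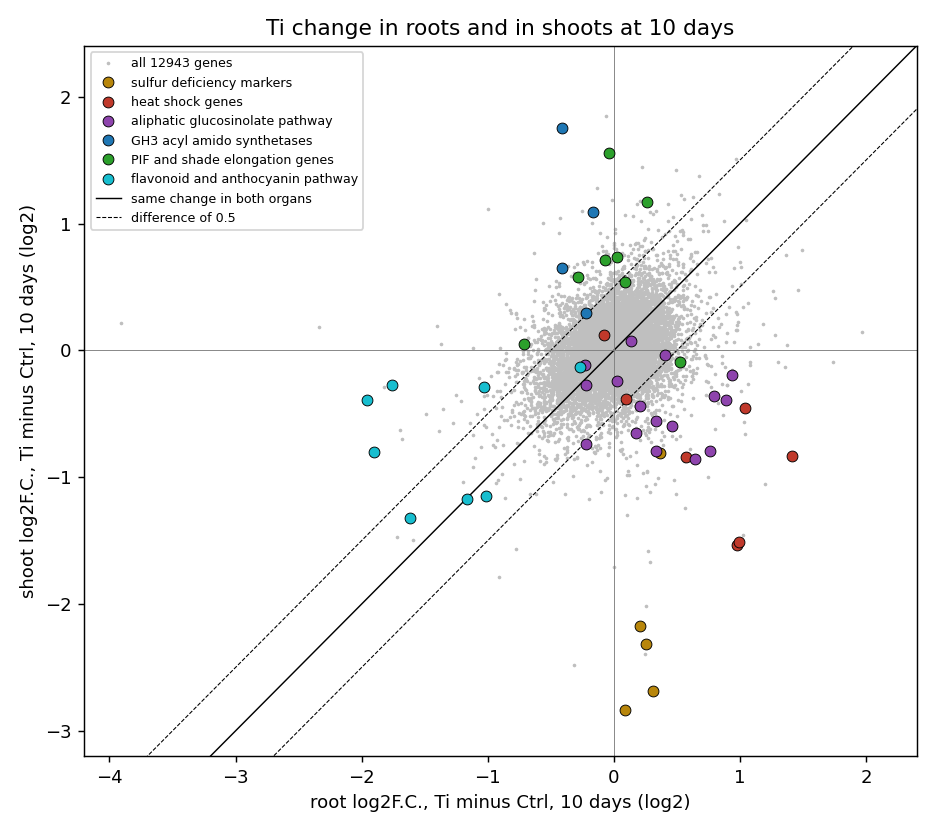
Each grey point is 1 of the 12943 genes, with the root log2F.C. (Ti minus Ctrl, log2) on the x axis and the shoot log2F.C. on the y axis, both at 10 days. Coloured points are genes of 6 function lists, the solid line marks an equal change in both organs, and dashed lines mark an organ difference of 0.5 either way. Most heat shock genes lie at the lower right, with HSP70-1 near the origin, and GH3 genes lie at the upper left.

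The length of the transcript moved with the organ difference over all genes. The 334 genes whose longest reference transcript has at most 750 bases had a median organ difference of -0.31, from a median root log2F.C. of -0.21 and a shoot log2F.C. of 0.11. The 663 genes with transcripts of over 4000 bases had a median of 0.29, from 0.18 in roots and -0.11 in shoots. Across all genes the organ difference correlated with log2 length at a Pearson r of 0.42 (Spearman 0.48). Of the short group 20.1% were below -0.5 and 0.898% above 0.5, and of the long group 0.151% were below and 15.8% above. The part of transcript length, and of RNA integrity or library preparation, in the organ differences was not tested. Each list below is therefore given also with a length-centred organ difference, that is the organ difference minus the median over the 500 genes nearest in transcript length. With it, 477 genes were above 0.5 (3.69%) and 356 below -0.5 (2.75%), and the robust standard deviation was 0.21.

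**Figure D2:**
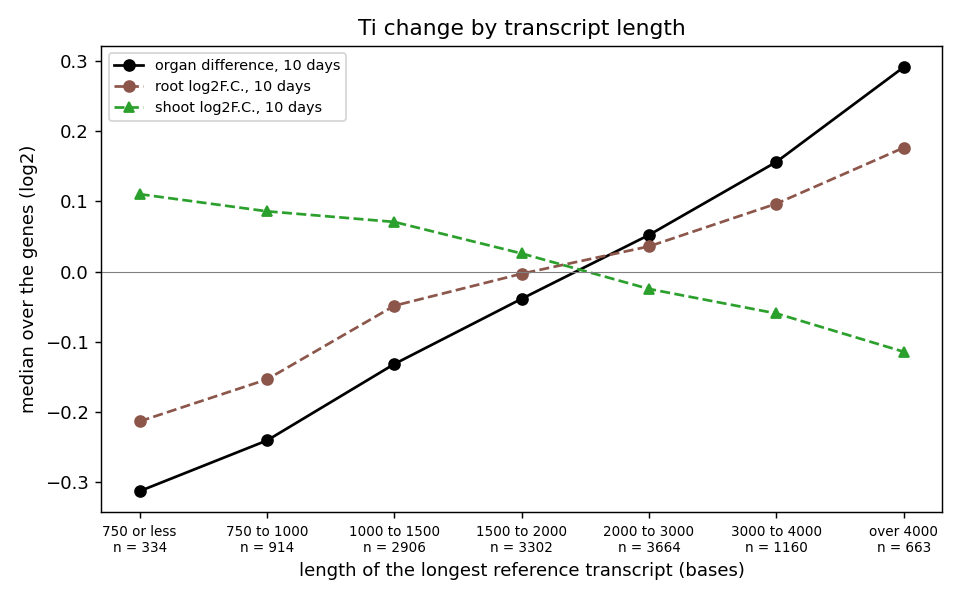
Median organ difference, root log2F.C. and shoot log2F.C. at 10 days (y axis, log2) over genes in 7 bins of the length of the longest reference transcript (x axis, bases, with the number of genes). The median organ difference runs between -0.31 in the shortest bin and 0.29 in the longest, with root and shoot medians moving in opposite directions.

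The function lists were chosen with earlier results of these data known, and some were corrected after the files had been read, so their ranking is not blind. Of 56 function lists, which leave out the 4 lists added after values had been seen, 52 held at least 4 of these genes, and 28 of the 52 had a median organ difference within 0.2 of 0. Among these 52, the lists with the highest medians were sulfur deficiency markers (2.57), heat shock genes (1.496), the aliphatic glucosinolate pathway (0.86), ferritins (0.51), cellulose synthases (0.30) and lignin and phenylpropanoid enzymes (0.29). Those with the lowest were GH3 acyl amido synthetases (-1.16), PIF and shade elongation genes (-0.78), SAUR genes (-0.67), the flavonoid pathway (-0.52), expansins (-0.37) and histones (-0.36). Over all 12943 genes the median was -0.02, which is the value to set beside these list medians.

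**Figure D3:**
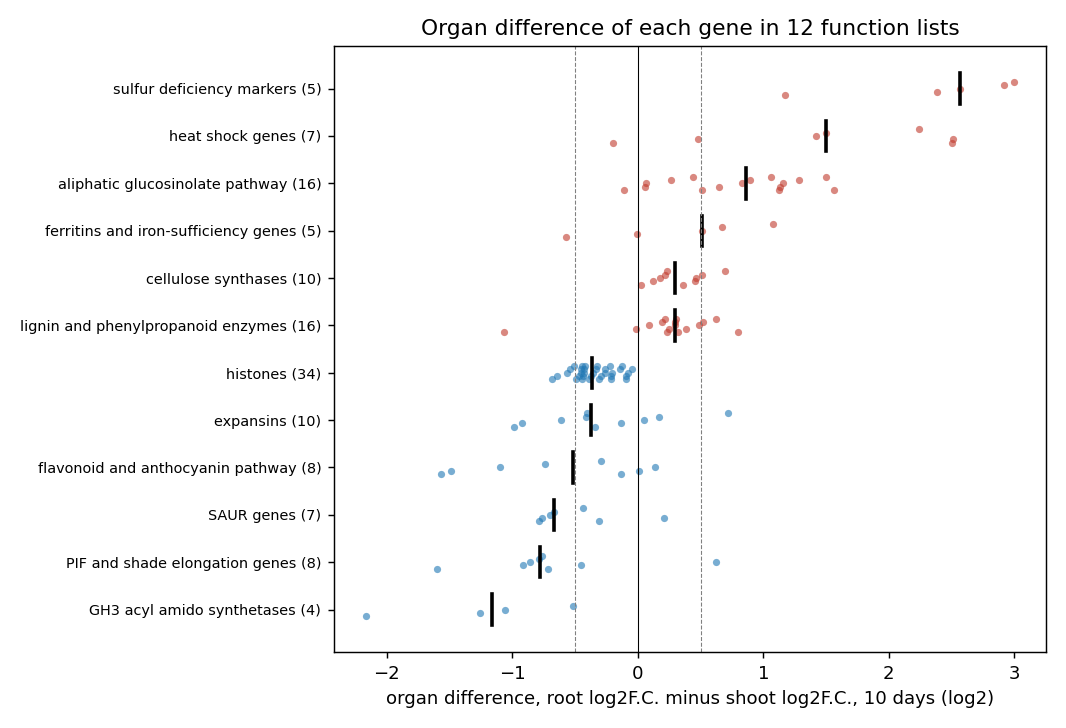
Each point is the organ difference of 1 gene at 10 days (x axis, log2) in the 6 lists with the highest and the 6 with the lowest medians, the 4 added lists left out, with the number of genes in parentheses. Black bars are list medians and dashed lines mark 0.5 and -0.5. All 5 sulfur deficiency markers lie above 0.5 and all 4 GH3 genes below -0.5.

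Sulfur deficiency markers showed the largest list median. All 5 of the markers that passed the floor were above 0.5, with organ differences between 1.17 and 3.00, and the difference came from shoots: the median log2F.C. was 0.26 in roots and -2.31 in shoots. LSU2, a small protein of the response to low sulfur, was at 12.5 CPM in Ti roots and 11.7 CPM in Ctrl roots, against 2.396 CPM in Ti shoots and 17.1 CPM in Ctrl shoots. Its organ difference was 2.92. SDI2, a relative of the glucosinolate repressor SDI1, was at 19.4 CPM in Ti roots and 15.6 CPM in Ctrl roots, and at 7.83 CPM in Ti shoots and 50.5 CPM in Ctrl shoots. This was the highest organ difference of all 12943 genes, 3.00. SHM7, a serine hydroxymethyltransferase, was at 52.9 and 45.8 CPM in Ti and Ctrl roots and at 24.8 and 112 CPM in Ti and Ctrl shoots, an organ difference of 2.38. SULTR4;2, which exports sulfate from the vacuole, had the smallest difference of the 5, 1.17. The length-centred median was 2.60.

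The other 5 markers of this list stayed below 5 CPM in the untreated group of at least one organ. SDI1 was at 5.08 and 2.17 CPM in Ti and Ctrl roots and at 3.37 and 9.39 CPM in Ti and Ctrl shoots, and LSU3 was at 3.21 and 1.481 CPM in Ti and Ctrl roots and at 0.918 and 2.66 CPM in Ti and Ctrl shoots. Both were higher in Ti roots and lower in Ti shoots, as in the members. LSU1 was at 6.19 and 2.98 CPM in Ti and Ctrl roots and, unlike those, higher in Ti shoots (1.96 CPM) than in Ctrl shoots (1.06 CPM). GGCT2;1, an enzyme of glutathione turnover, was at 1.29 and 1.93 CPM in Ti and Ctrl roots and at 2.14 and 8.71 CPM in Ti and Ctrl shoots. BGLU28 was listed in shoots only, at 4.80 CPM with Ti and 2.42 CPM in Ctrl.

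The fifth of these markers, APR3, belongs to the enzymes that reduce activated sulfate, and its organ difference is the list median. APR1, APR2 and APR3 encode the adenosine phosphosulfate reductases, the controlled step of sulfate assimilation. APR3 was at 94.4 CPM in Ti roots and 79.0 CPM in Ctrl roots, against 18.9 CPM in Ti shoots and 93.8 CPM in Ctrl shoots. APR1 was at 37.7 and 31.8 CPM in Ti and Ctrl roots and at 19.2 and 101 CPM in Ti and Ctrl shoots. APR2 was at 49.8 and 41.8 CPM in Ti and Ctrl roots and at 85.1 and 344 CPM in Ti and Ctrl shoots. Each reductase was thus lower in Ti shoots by 2.02 to 2.39 (log2), while its root value was higher by 0.25 or 0.26, and the organ differences were 2.57, 2.64 and 2.27.

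The wider list of sulfate transport, activation and reduction did not move as one. Its 18 genes had a median of 0.21 (length-centred 0.15), with 6 above 0.5 and 1 below -0.5. The uptake transporter SULTR1;2 was at 410 and 313 CPM in Ti and Ctrl roots and at 9.84 and 16.5 CPM in Ti and Ctrl shoots, an organ difference of 1.14, and the ATP sulfurylase APS3 had 1.2001. APS1, another sulfurylase, was lower by 0.55 in both organs and had an organ difference of 0.00. The 1 gene below -0.5 was APK2, an adenosine phosphosulfate kinase that supplies the sulfate donor of glucosinolate synthesis, at 55.9 and 135 CPM in Ti and Ctrl roots and at 28.3 and 42.1 CPM in Ti and Ctrl shoots. Its organ difference was -0.70.

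Of 7 heat shock genes, 5 were higher by over 0.2 in Ti roots and 6 were lower by over 0.2 in Ti shoots (17.8% and 17.9% of all genes). The 7 members of the list had a median log2F.C. of 0.98 in roots and -0.83 in shoots, and 5 of the 7 were above 0.5. HSP101, the disaggregase of the cytosol, was at 127 CPM in Ti roots and 64.4 CPM in Ctrl roots, against 47.2 CPM in Ti shoots and 136 CPM in Ctrl shoots. HSFA2, a heat shock factor, was at 22.1 and 11.1 CPM in Ti and Ctrl roots and at 22.4 and 63.6 CPM in Ti and Ctrl shoots. HSP90-1, the inducible cytosolic HSP90, was at 199 and 74.8 CPM in Ti and Ctrl roots and at 135 and 240.5 CPM in Ti and Ctrl shoots. Each of the 3 thus lay higher with Ti in roots and lower with Ti in shoots, with organ differences of 2.51, 2.50 and 2.24.

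HSP70-4 and MBF1C, a heat-induced coactivator, followed with 1.496 and 1.42. HSP70-4 was at 893 and 433 CPM in Ti and Ctrl roots and at 457 and 626 CPM in Ti and Ctrl shoots. The 2 remaining members were ROF1, a co-chaperone, with 0.48, and the constitutive HSP70-1 with -0.20. HSP70-1 was at 2610 and 2754 CPM in Ti and Ctrl roots and at 2650 and 2440 CPM in Ti and Ctrl shoots, the member whose difference ran against the rest. The length-centred list median was 1.61. The 7 list genes outside the floor were all small heat shock proteins, of which 2 were higher and 3 lower by over 0.2 in Ti shoots. HSP17.6A was at 1.37 and 0.778 CPM in Ti and Ctrl roots and at 16.1 and 42.4 CPM in Ti and Ctrl shoots, whereas HSP17.4 was at 6.67 and 1.72 CPM in Ti and Ctrl roots and at 13.1 and 10.7 CPM in Ti and Ctrl shoots.

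The windows upstream of HSFA2 and HSP23.5 are shown because these 2 genes were among those with opposite values in the organs and their windows hold letters to which heat shock factors are known to bind. Each window is the 250 bases before the RefSeq gene start on the TAIR10.1 build, written 5′ to 3′ in the direction of the gene, with chr2:11135374-11135623 (plus strand) for HSFA2 and chr5:20890913-20891162 (plus strand) for HSP23.5. Capitals mark every match to the heat shock core, GAANNTTC or TTCNNGAA, each of which is its own reverse complement, and overlapping matches run together.
HSFA2: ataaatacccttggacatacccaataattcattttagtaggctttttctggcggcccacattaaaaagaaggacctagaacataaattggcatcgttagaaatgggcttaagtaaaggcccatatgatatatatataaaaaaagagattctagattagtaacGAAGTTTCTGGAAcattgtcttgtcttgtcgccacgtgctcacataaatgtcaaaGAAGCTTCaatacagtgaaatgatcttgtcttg
HSP23.5: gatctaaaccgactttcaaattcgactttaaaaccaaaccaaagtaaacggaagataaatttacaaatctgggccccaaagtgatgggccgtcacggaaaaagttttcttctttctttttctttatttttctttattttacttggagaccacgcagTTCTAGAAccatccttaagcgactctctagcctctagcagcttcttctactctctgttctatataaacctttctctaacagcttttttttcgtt
In HSFA2 the 3 matches begin at positions -88, -83 and -33 from the gene start, and in HSP23.5 the 1 match begins at -94. The core was found in 2004 of the 12942 windows read (15.5%) and in 1 of the 7 heat shock genes (14.3%), a share near that of all windows. The longer heat shock element, in which GAA and TTC alternate 3 times with NN between them, was found in 52 of all windows (0.402%), HSFA2 among them, and in 2 of the 86 genes with an organ difference above 1 (2.33%). A match is a description of letters and was not tested as a binding site.

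The chaperone families around these genes did not follow as a whole. They were added after values had been seen. The 11 small chaperones of the HSP20 type had a median of 0.17 (length-centred 0.15), with 2 above 0.5 and 1 below -0.5, and the 91 DnaJ co-chaperones had a median of 0.05 (length-centred 0.07), with 8 above and 8 below. A few members stood far out. HSP23.5, a mitochondrial small heat shock protein, was at 55.4 and 24.2 CPM in Ti and Ctrl roots and at 22.8 and 47.3 CPM in Ti and Ctrl shoots, and its organ difference was 2.25. The DnaJ protein AT2G20560 was at 91.1 and 44.7 CPM in Ti and Ctrl roots and at 23.2 and 63.7 CPM in Ti and Ctrl shoots, an organ difference of 2.48. The DnaJ proteins AT1G72416 and AT3G14200 had 1.701 and 1.496.

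Chaperones of the endoplasmic reticulum went the other way. This list too was added after values had been seen, so its direction is a description. Of its 19 genes 14 were below -0.5 and 1 was above 0.5, and the median was -0.61 (length-centred -0.65). Both organs contributed, with a median log2F.C. of -0.32 in roots and 0.31 in shoots. Lower values by over 0.2 in Ti roots were seen for 16 genes and higher values by over 0.2 in Ti shoots for 14 (20.2% and 19.3% of all genes). CNX1, a calnexin that holds unfolded glycoproteins, was at 245 and 347 CPM in Ti and Ctrl roots and at 270.1 and 207 CPM in Ti and Ctrl shoots, and its organ difference was -0.89. ERDJ3B, a co-chaperone of the lumenal HSP70, was at 81.4 and 102 CPM in Ti and Ctrl roots and at 76.9 and 50.3 CPM in Ti and Ctrl shoots, an organ difference of -0.93. PDIL1-2, a protein disulfide isomerase, was at 61.3 and 88.7 CPM in Ti and Ctrl roots and at 42.3 and 33.1 CPM in Ti and Ctrl shoots (-0.89). The same pattern of lower in Ti roots and higher in Ti shoots held for these 3 genes.

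Other well-known chaperones of this compartment lay in the same direction. SHD, the HSP90 of the endoplasmic reticulum, was at 349 and 426 CPM in Ti and Ctrl roots and at 375 and 301 CPM in Ti and Ctrl shoots, with an organ difference of -0.61. CRT1b, a calreticulin, was at 232 and 302 CPM in Ti and Ctrl roots and at 169.5 and 132 CPM in Ti and Ctrl shoots (-0.74). BIP1 and BIP2, lumenal HSP70 proteins with near-identical transcripts, had -0.51 and -0.57, and their summed CPM gave -0.54. The gene that ran against the list was ERDJ3A, at 13.6 and 10.1 CPM in Ti and Ctrl roots and at 9.64 and 12.05 CPM in Ti and Ctrl shoots, with 0.75. The median of the heat shock list was thus positive in roots and negative in shoots, and that of the endoplasmic reticulum list negative in roots and positive in shoots.

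The aliphatic glucosinolate pathway, which builds methionine-derived defence compounds, had a positive median organ difference. Of its 16 genes 10 were higher and 3 lower by over 0.2 in Ti roots (17.8% and 20.2% of all genes), and 12 were lower in Ti shoots and 0 higher (17.9% and 19.3%). For the organ difference 11 were above 0.5 and 0 below -0.5, and 15 had a positive difference. The list median was 0.86 (length-centred 0.90), from 0.34 in roots and -0.41 in shoots. CYP79F2, which starts the core structure from long-chain methionine derivatives, was at 27.3 and 16.1 CPM in Ti and Ctrl roots and at 8.30 and 14.4 CPM in Ti and Ctrl shoots, an organ difference of 1.56. IPMI-SSU3, an isopropylmalate isomerase subunit, was at 27.4 and 17.5 CPM in Ti and Ctrl roots and at 16.0 and 28.9 CPM in Ti and Ctrl shoots (1.499). In both genes the values lay in opposite directions by over 0.5 in the organs.

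Enzymes of side-chain elongation differed among themselves. MAM1, the methylthioalkylmalate synthase, was at 44.7 and 24.1 CPM in Ti and Ctrl roots and at 194 and 254 CPM in Ti and Ctrl shoots, and BCAT4, the aminotransferase of the first step, was at 35.3 and 18.4 CPM in Ti and Ctrl roots and at 90.9 and 104 CPM in Ti and Ctrl shoots. Their organ differences were 1.28 and 1.13, with the larger part in roots. BCAT3, another aminotransferase of the pathway, was at 60.2 and 70.2 CPM in Ti and Ctrl roots and at 115 and 138.9 CPM in Ti and Ctrl shoots, lower with Ti in both organs, and had an organ difference of 0.05. CYP83A1, the next core enzyme after the CYP79F step, was at 40.8 and 23.49 CPM in Ti and Ctrl roots and at 119 and 153 CPM in Ti and Ctrl shoots (1.16). BASS5, which carries pathway intermediates into the chloroplast, and the isomerase subunit IPMI-SSU2 had 1.13 and 1.06. MYB28, the transcription factor that drives the pathway, had an organ difference of 0.06. Other pathway enzymes lay between, such as SOT18 with 0.44, GSTU20 with 0.51 and UGT74C1 with 0.64. The 1 negative member was SOT17, a desulfoglucosinolate sulfotransferase, at 19.0 and 22.3 CPM in Ti and Ctrl roots and at 9.73 and 10.6 CPM in Ti and Ctrl shoots (-0.11). Of 5 list genes outside the floor, 2 were lower by over 0.2 in Ti shoots and 0 higher. CYP79F1 was one of them, at 0.037 and 0.038 CPM in Ti and Ctrl roots and at 42.7 and 78.4 CPM in Ti and Ctrl shoots.

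**Figure D4:**
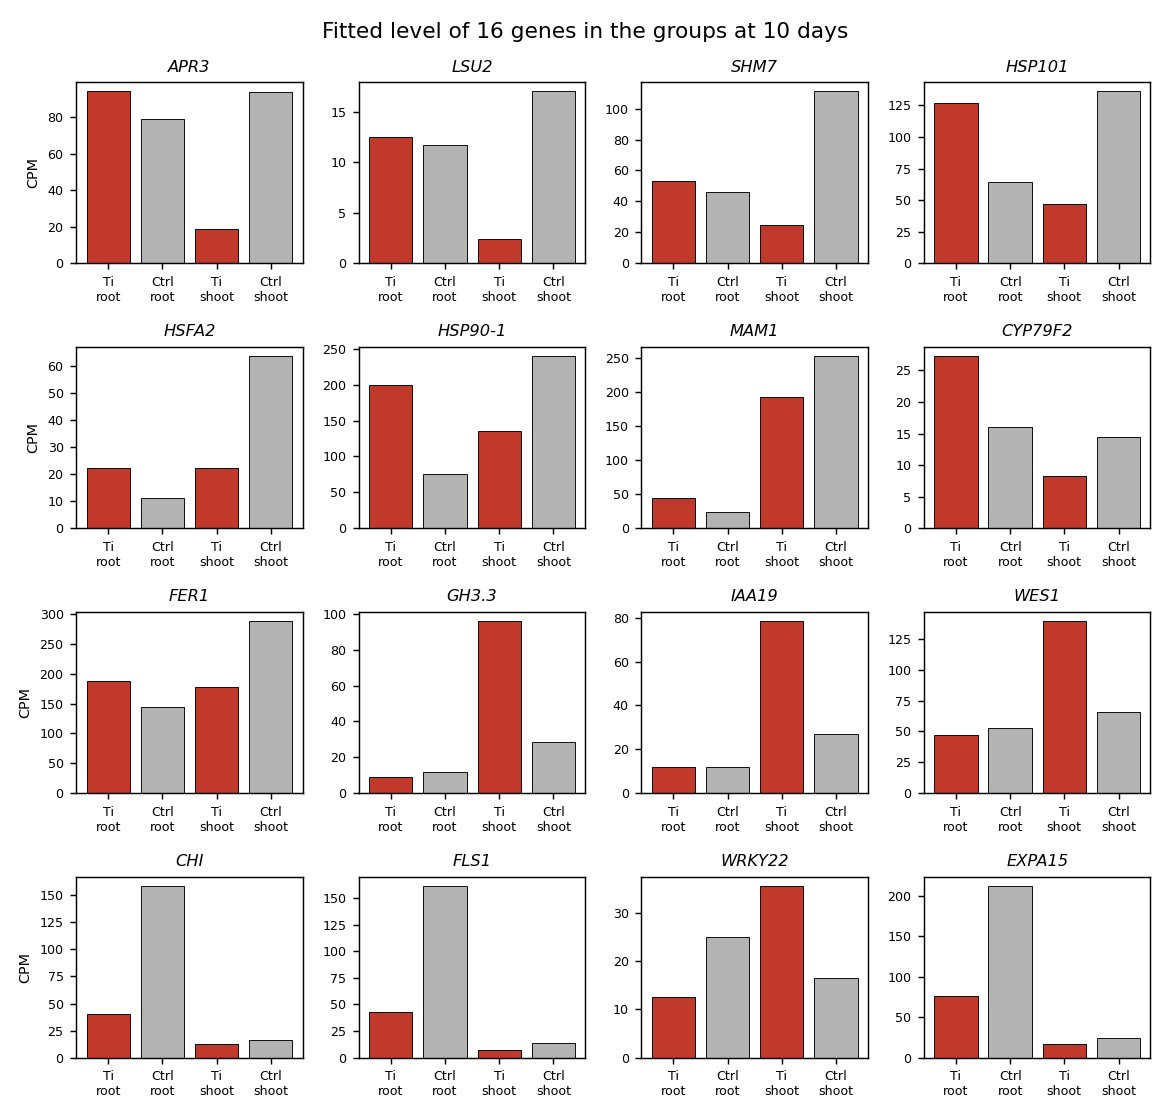
Fitted level (y axis, CPM, from 0) of 16 genes at 10 days, with bars for Ti roots, Ctrl roots, Ti shoots and Ctrl shoots from left to right and 1 fitted value per bar, so no error bar can be drawn. HSP101 stands at 127 CPM in Ti roots and 64.4 CPM in Ctrl roots and at 47.2 CPM in Ti shoots and 136 CPM in Ctrl shoots, whereas WRKY22 is lower in Ti than in Ctrl roots and higher in Ti than in Ctrl shoots.

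Ferritins and other iron-sufficiency genes were a small list with a mixed direction. The list had 5 members, a median of 0.51 (length-centred 0.63), 3 genes above 0.5 and 1 below -0.5. FER1, an iron storage protein of plastids, was at 187 and 145 CPM in Ti and Ctrl roots and at 177 and 289 CPM in Ti and Ctrl shoots, an organ difference of 1.08. FER3 and FER4 followed with 0.67 and 0.51. VTL2, a vacuolar iron transporter-like protein, was at 11.1 and 15.3 CPM in Ti and Ctrl roots and at 5.98 and 5.55 CPM in Ti and Ctrl shoots, which gave -0.57.

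Genes of wall polymers had small positive medians. All 10 cellulose synthases had a positive difference, with a median of 0.30 and 2 above 0.5, but they have long transcripts (median 3728 bases) and the length-centred median was 0.13 with 0 above 0.5. CESA5, a subunit of primary walls, was at 54.8 and 56.3 CPM in Ti and Ctrl roots and at 67.0 and 111 CPM in Ti and Ctrl shoots and had 0.69 (length-centred 0.47). CESA4, CESA6 and CESA8 had 0.51, 0.46 and 0.46. The 16 lignin and phenylpropanoid enzymes had a median of 0.29 (length-centred 0.25), and 15 of the 16 were lower by over 0.2 in Ti shoots (17.9% of all genes). COMT1, a methyltransferase of lignin precursors, was at 273 and 279 CPM in Ti and Ctrl roots and at 124 and 195 CPM in Ti and Ctrl shoots (0.62), and 4CL2, a 4-coumarate ligase, was at 68.9 and 58.2 CPM in Ti and Ctrl roots and at 4.82 and 7.08 CPM in Ti and Ctrl shoots (0.80). CAD4 and CCR1 had 0.52 and 0.49. For CCR1 the value was 0.48 when summed with AT1G15960, a locus that shares transcript sequence with it. 4CL3, the ligase that feeds flavonoid synthesis, ran against the list with 4.73 and 15.3 CPM in Ti and Ctrl roots and 3.93 and 6.07 CPM in Ti and Ctrl shoots, an organ difference of -1.07.

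At the other end, GH3 genes were higher in Ti shoots. GH3 enzymes attach amino acids to auxin and related acids and so lower the pool of free hormone. All 4 members were below -0.5, and the median was -1.16 (length-centred -1.22), from -0.31 in roots and 0.87 in shoots. GH3.3 was at 8.61 and 11.4 CPM in Ti and Ctrl roots and at 96.2 and 28.5 CPM in Ti and Ctrl shoots, and its organ difference was -2.16. WES1, also known as GH3.5, was at 47.0 and 52.7 CPM in Ti and Ctrl roots and at 140.1 and 65.7 CPM in Ti and Ctrl shoots (-1.26), and DFL1, also known as GH3.6, was at 30.5 and 40.6 CPM in Ti and Ctrl roots and at 169 and 108 CPM in Ti and Ctrl shoots (-1.06). GH3.17 had the smallest difference of the 4, -0.52. Of 5 list genes outside the floor, 4 were measured in shoots, and all 4 were higher by over 0.2 in Ti shoots: GH3.1 was at 1.99 and 0.410 CPM in Ti and Ctrl shoots and BRU6 at 5.82 and 2.86 CPM in Ti and Ctrl shoots, for example. Among all genes that passed the floor the share higher in Ti shoots was 19.3%, and none was computed for genes outside it.

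Genes of elongation under phytochrome-interacting factors and shade also had a negative median organ difference. Of the 8 members 6 were below -0.5 and 1 above 0.5, and the median of -0.78 (length-centred -0.69) came from -0.01 in roots and 0.65 in shoots. With Ctrl at 1 CPM or more in both organs, which admits further genes of the list, the median was -0.46. IAA19, an Aux/IAA repressor of auxin response, was at 11.7 and 12.03 CPM in Ti and Ctrl roots and at 78.6 and 26.7 CPM in Ti and Ctrl shoots, an organ difference of -1.60. XTH15, a xyloglucan-modifying enzyme, was at 84.4 and 70.5 CPM in Ti and Ctrl roots and at 97.1 and 43.1 CPM in Ti and Ctrl shoots (-0.91). Summed with AT4G14120, a locus that shares transcript sequence with it, XTH15 gave -0.90. HAT2 and HFR1, transcription factors of the shade response, had -0.86 and -0.79. PIF5 was the exception, at 7.21 and 5.001 CPM in Ti and Ctrl roots and at 169.6 and 181 CPM in Ti and Ctrl shoots, with 0.62, and its root value lies at the floor. The 8 list genes outside the floor were mixed, with 4 higher and 2 lower by over 0.2 in Ti shoots. IAA29 was at 0.814 and 0.797 CPM in Ti and Ctrl roots and at 43.5 and 8.19 CPM in Ti and Ctrl shoots, whereas ATHB4 was at 6.10 and 10.01 CPM and PAR2 at 20.9 and 25.0 CPM in Ti and Ctrl shoots. The 17 Aux/IAA genes as a family had a median of -0.17 (length-centred -0.13), with 4 below -0.5 and 0 above 0.5.

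The SAUR genes of rapid auxin response were mostly outside the floor, with 7 members and 73 genes outside it. The 7 members had a median log2F.C. of -0.53 in roots and 0.11 in shoots. The median organ difference was -0.67. SAUR transcripts are short (median 977 bases), and the length-centred median was -0.43. AT3G60690 was at 30.2 and 54.9 CPM in Ti and Ctrl roots and at 13.4 and 14.1 CPM in Ti and Ctrl shoots (-0.79), and AT3G12830 was at 13.9 and 20.1 CPM in Ti and Ctrl roots and at 6.63 and 5.66 CPM in Ti and Ctrl shoots (-0.76). AT4G34750 and AT4G34760 had -0.70 and -0.67, and AT1G72430 ran against the list with 0.21. Of the genes outside the floor, 51 were measured in shoots, with 32 higher and 7 lower by over 0.2 with Ti, and 28 in roots, with 7 higher and 12 lower. Among all genes that passed the floor, 19.3% were higher and 17.9% lower in shoots, and 17.8% and 20.2% in roots. No share was computed over all genes outside the floor, so these counts have no like value beside them. SAUR19 was at 4.42 and 2.32 CPM in Ti and Ctrl shoots, and AT5G50760 was at 79.6 and 52.6 CPM in Ti and Ctrl roots.

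The windows upstream of GH3.3, WES1 and IAA19 are shown because these genes had the 3 lowest organ differences of the GH3, elongation and SAUR lists and hold the auxin response element, TGTCTC, read on both strands as TGTCTC or GAGACA. They were read as above, at chr2:9866563-9866812 (minus strand) for GH3.3, chr4:13653329-13653578 (plus strand) for WES1 and chr3:5263751-5264000 (plus strand) for IAA19 on TAIR10.1, with matches in capitals.
GH3.3: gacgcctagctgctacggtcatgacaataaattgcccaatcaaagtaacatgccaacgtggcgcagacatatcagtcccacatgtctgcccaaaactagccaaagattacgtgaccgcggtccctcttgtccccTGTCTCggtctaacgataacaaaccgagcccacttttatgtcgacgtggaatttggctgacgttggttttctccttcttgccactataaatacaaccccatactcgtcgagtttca
WES1: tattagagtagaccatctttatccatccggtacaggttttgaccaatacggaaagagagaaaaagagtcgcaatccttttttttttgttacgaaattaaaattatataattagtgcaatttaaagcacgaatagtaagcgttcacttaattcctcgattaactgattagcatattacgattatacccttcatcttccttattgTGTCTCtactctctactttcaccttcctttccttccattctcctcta
IAA19: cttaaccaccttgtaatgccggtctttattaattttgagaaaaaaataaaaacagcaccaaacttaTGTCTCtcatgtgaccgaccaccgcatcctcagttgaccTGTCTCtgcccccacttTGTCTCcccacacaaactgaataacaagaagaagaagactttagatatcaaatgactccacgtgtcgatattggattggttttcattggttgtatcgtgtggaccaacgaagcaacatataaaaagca
The match in GH3.3 begins at position -116, that in WES1 at -47, and the 3 in IAA19 at -184, -145 and -128. The element was in 1332 of the 12942 windows (10.3%), in 2 of 4 GH3 genes, 2 of 8 genes of the elongation list and 0 of 7 SAUR genes. It was in 8 of the 40 genes with an organ difference below -1 (20%) and in 5 of the 86 above 1 (5.81%). Both sets were cut by the organ difference itself, and GH3.3, WES1 and IAA19 are among the 8. The shorter sulfur-response core GAGAC or GTCTC, which lies within the auxin element, was in 3161 of all windows (24.4%), in 0 of the 5 sulfur deficiency markers and in 1 of the 18 sulfate genes. That core was in 15 of the 40 genes below -1 (37.5%) and in 17 of the 86 above 1 (19.8%). A match was not tested as a binding site, and the lack of one says only that these letters are not in this window.

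Genes of the flavonoid list above the floor were mostly lower with Ti in both organs, and part of the pathway more so in roots. All 8 members were lower by over 0.2 in Ti roots and 7 in Ti shoots (20.2% and 17.9% of all genes), with medians of -1.39 in roots and -0.60 in shoots. The organ difference had a median of -0.52 (length-centred -0.46), with 4 genes below -0.5 and 0 above 0.5. CHI, the chalcone isomerase, was at 40.8 and 159 CPM in Ti and Ctrl roots and at 12.5 and 16.4 CPM in Ti and Ctrl shoots, an organ difference of -1.57. FLS1, the flavonol synthase, was at 43.3 and 162 CPM in Ti and Ctrl roots and at 7.72 and 13.5 CPM in Ti and Ctrl shoots (-1.10), and UGT78D1, a flavonol rhamnosyltransferase, was at 5.27 and 17.8 CPM in Ti and Ctrl roots and at 29.9 and 36.1 CPM in Ti and Ctrl shoots (-1.49). The entry enzyme CHS, a chalcone synthase, was instead lower to the same degree in both organs, at 1169 and 2614 CPM in Ti and Ctrl roots and at 184 and 414 CPM in Ti and Ctrl shoots (0.01). F3H, a flavanone hydroxylase, was at 102 and 206 CPM in Ti and Ctrl roots and at 20.7 and 46.0 CPM in Ti and Ctrl shoots (0.13), and the hydroxylase F3'H had -0.74. The steps of 1 pathway thus differed among themselves in how the organs compared. Of the 8 list genes outside the floor, 3 were measured in roots, with 1 higher and 2 lower by over 0.2 with Ti. All 8 were measured in shoots, with 1 higher and 4 lower. The higher ones were MYB12, at 8.65 and 6.21 CPM in Ti and Ctrl roots, and MYB75, at 0.937 and 0.529 CPM in Ti and Ctrl shoots.

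Expansins, which loosen walls, had a median of -0.37 over 10 genes (length-centred -0.28), with 3 below -0.5 and 1 above 0.5. EXPA15 was at 75.7 and 212 CPM in Ti and Ctrl roots and at 16.9 and 23.9 CPM in Ti and Ctrl shoots, an organ difference of -0.99 that came mostly from roots. EXPA6 was at 16.9 and 26.5 CPM in Ti and Ctrl roots and at 106 and 87.7 CPM in Ti and Ctrl shoots (-0.92), and EXPA4 had -0.61. EXPA1 ran against them, at 64.4 and 66.2 CPM in Ti and Ctrl roots and at 363 and 616 CPM in Ti and Ctrl shoots, with 0.72.

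Several large families had medians that were nearer to 0 after length-centring. All 34 histone genes had a negative organ difference and 5 were below -0.5, but their transcripts are short (median 840 bases), and the median of -0.36 became -0.10 when length-centred, with 0 genes below -0.5. HTB1, a histone H2B, was at 27.6 and 41.5 CPM in Ti and Ctrl roots and at 31.8 and 29.9 CPM in Ti and Ctrl shoots (-0.68, length-centred -0.42), and the histone genes AT5G59970, AT2G37470 and HTA12 had -0.64, -0.56 and -0.54. The 143 cytosolic ribosomal protein genes had a median of -0.21, and their length-centred median was 0.01. The 37 plastid ribosomal protein genes had -0.28 (length-centred -0.07), and the 41 photosystem genes had -0.25 (length-centred -0.07). At the long end, 49 NBS-LRR receptor genes had 0.28 (length-centred 0.03), and 10 ABC transporters of the MRP type, another list added after values had been seen, had 0.55 with 6 above 0.5 (length-centred 0.24 with 0 above). For these 6 families the length-centred medians were nearer to 0 than the uncentred ones, whereas those of sulfur deficiency markers, heat shock, glucosinolate, endoplasmic reticulum and GH3 genes were farther from 0 after centring.

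Some of the genes at the ends of the ranking belong to lists with medians near 0 or to no list. XTH24, a xyloglucan endotransglucosylase, was at 143 and 36.6 CPM in Ti and Ctrl roots and at 153 and 138 CPM in Ti and Ctrl shoots, an organ difference of 1.82 that came from roots. NIR1, the nitrite reductase, was at 262 and 186 CPM in Ti and Ctrl roots and at 81.5 and 179 CPM in Ti and Ctrl shoots (1.63), higher in Ti roots and lower in Ti shoots. The nitrate list as a whole had a median of 0.06 (length-centred 0.09) over 19 genes, with 7 above 0.5 and 2 below -0.5. The nitrate reductases NIA1 (0.81) and NIA2 (0.65) were among the 7. ELIP2, an early light-induced protein of plastids, was at 4.17 and 5.21 CPM in Ti and Ctrl roots and at 7.42 and 41.5 CPM in Ti and Ctrl shoots (2.16), with the larger part of the difference in shoots. EXT3, an extensin, was at 3030.2 and 1430.3 CPM in Ti and Ctrl roots and at 16.5 and 16.2 CPM in Ti and Ctrl shoots (1.06), but its transcript shares sequence with the locus AT1G21313.

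Among the negative values, WRKY22 and WRKY11, transcription factors of immune signalling, were both higher in Ti shoots and lower in Ti roots. WRKY22 was at 12.5 and 25.1 CPM in Ti and Ctrl roots and at 35.6 and 16.4 CPM in Ti and Ctrl shoots (-2.11) and WRKY11 at 99.3 and 135 CPM in Ti and Ctrl roots and at 22.6 and 11.9 CPM in Ti and Ctrl shoots (-1.37), whereas WRKY18 lay the other way, at 22.0 and 12.4 CPM in Ti and Ctrl roots and at 13.4 and 17.9 CPM in Ti and Ctrl shoots (1.24). The 26 WRKY genes had a median of -0.01 (length-centred -0.07), with 2 above 0.5 and 5 below -0.5. ADS1, a fatty acid desaturase, was at 8.31 and 8.66 CPM in Ti and Ctrl roots and at 34.9 and 9.72 CPM in Ti and Ctrl shoots (-1.91), and SEN1, a gene of dark-induced senescence, was at 45.9 and 61.6 CPM in Ti and Ctrl roots and at 500.2 and 242 CPM in Ti and Ctrl shoots (-1.47). Both were higher in Ti shoots. CYP707A3, which breaks down abscisic acid, had -1.18 and GRP3S, a glycine-rich protein, -1.57. In others the root value carried the difference: the aquaporin PIP2;5 was at 6.24 and 16.1 CPM in Ti and Ctrl roots and at 11.9 and 11.4 CPM in Ti and Ctrl shoots (-1.42), KIN2, a cold- and drought-induced gene, was at 57.7 and 125 CPM in Ti and Ctrl roots and at 8.88 and 8.79 CPM in Ti and Ctrl shoots (-1.13), and AT5G01740 was at 2.93 and 7.73 CPM in Ti and Ctrl roots and at 8.06 and 7.07 CPM in Ti and Ctrl shoots (-1.59).

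Shared transcript sequence makes 4 of the named genes with an organ difference below -1 uncertain, since reads of a shared stretch can be split between loci in counting. Of the 12943 genes, 386 share transcript sequence with another locus or an organelle genome. For the 386 as a whole, copies and overlapping neighbours were not told apart. AT1G24881 had the lowest organ difference, -4.13, at 0.384 and 5.78 CPM in Ti and Ctrl roots and at 6.02 and 5.18 CPM in Ti and Ctrl shoots, but it is 1 of 5 near-identical F-box loci measured, and their summed CPM gave -0.10. AT5G61660 shares sequence with AT5G61650 and was at 1.63 and 8.24 CPM in Ti and Ctrl roots and at 14.7 and 13.0 CPM in Ti and Ctrl shoots (-2.52), with the opposite sign at 3 days (3.03). AT2G07706 (-1.53) shares sequence with the mitochondrial genome. GDPD1, a glycerophosphodiester phosphodiesterase, had -1.35 alone and -0.97 when summed with AT3G02030, a locus that shares transcript sequence with it. For AT5G61660 and AT2G07706 no sum over loci was made.

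The medians of the biological process terms of the reference annotation ran between -0.29 and 0.43, a narrower span than that of the curated lists (-1.16 to 2.57). The size limits were unlike, with at least 10 genes for a term and at least 4 for a list. Among lists of at least 10 genes, the 4 added ones left out, the medians ran between -0.37 (expansins) and 0.86 (aliphatic glucosinolate pathway). A term was attached to 8386 of the genes, and 193 terms held at least 10. The highest medians were those of response to high light intensity (0.43, 13 genes), trehalose biosynthesis (0.29, 10 genes) and response to hydrogen peroxide (0.29, 10 genes). The lowest were response to ethylene stimulus (-0.29, 11 genes), nucleosome assembly (-0.26, 43 genes), nitrogen compound metabolism (-0.25, 14 genes), toxin catabolism (-0.25, 10 genes) and translational elongation (-0.23, 23 genes). Terms close in name to a list did not always go with it. The flavonoid biosynthesis term had 0.16 (10 genes, 1 above 0.5 and 2 below -0.5), against -0.52 for the flavonoid list. The lignin biosynthesis term had 0.05 (15 genes) and a shoot median of 0.04, against 0.29 and -0.36 for the lignin list. Response to heat (0.18, 43 genes) and cellulose biosynthesis (0.18, 15 genes) had the sign of their lists. No length-centred value was computed for the terms. With centring, the median of the histone list above went from -0.36 to -0.10 and that of cytosolic ribosomal protein genes from -0.21 to 0.01.

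At 3 days the organ differences were smaller and largely of other genes. Their robust standard deviation was 0.13, and 112 genes were above 0.5 (0.865%) and 92 below -0.5 (0.711%). Across genes the organ difference at 10 days had a Pearson correlation of -0.03 (Spearman -0.09) with that at 3 days (n = 12943 genes, which are not independent replicates). The days share no library. Of the 554 genes above 0.5 at 10 days, 29 (5.23%) were above 0.5 at 3 days and 20 were below -0.5, and of the 574 genes below -0.5, 11 (1.92%) were below at 3 days and 14 above. Of the 86 genes above 1 at 10 days, 12 (14.0%) were above 0.5 at 3 days and 7 were below -0.5. Of the 40 genes below -1, 2 (5%) were below -0.5 at 3 days and 2 were above 0.5.

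Of the lists, sulfur deficiency markers had the highest median at 3 days among the 12, 0.46, from 0.27 in roots and -0.18 in shoots, and all 5 members were positive. Heat shock genes, by contrast, had a median of 0.04 and were lower with Ti in both organs at 3 days, at -0.25 in roots and -0.35 in shoots. HSP101 was at 23.62 and 28.7 CPM in Ti and Ctrl roots and at 12.2 and 13.3 CPM in Ti and Ctrl shoots, and HSFA2 at 3.44 and 4.10 CPM in Ti and Ctrl roots and at 1.19 and 2.22 CPM in Ti and Ctrl shoots. The glucosinolate pathway (0.01), GH3 genes (0.02) and endoplasmic reticulum chaperones (0.00) had 3-day medians near 0. The elongation list had 0.37 at 3 days, the sign opposite to that at 10 days, with 4 of its 8 genes above 0.5. Several of its genes lay below 5 CPM in a Ctrl group at 3 days. PIF5 was at 2.93 CPM in Ctrl roots. In Ctrl shoots HFR1 was at 4.36 CPM, IAA19 at 4.04 CPM and CKX5, another gene of the list, at 2.29 CPM. PIF5 (0.54) and CKX5 (0.504) were among the 4 above 0.5. Flavonoid genes had 0.11 and photosystem genes 0.27. Transcript length moved with the organ difference in the other direction at 3 days and less, with a Pearson r of -0.11 between log2 length and the organ difference.

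**Figure D5:**
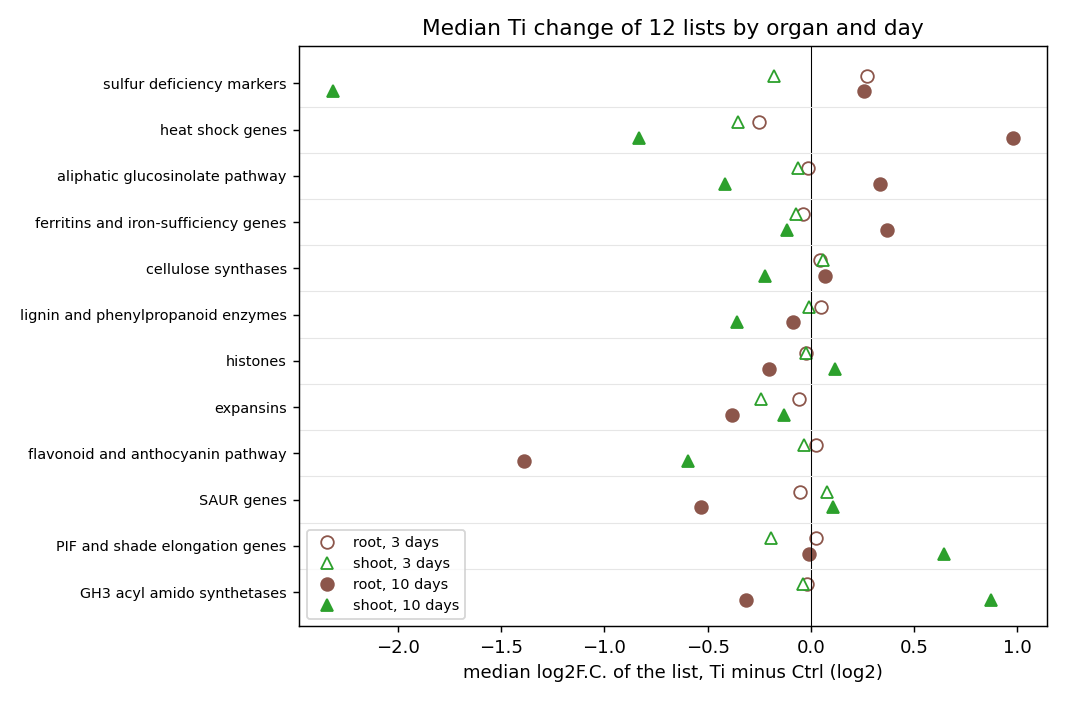
Median log2F.C. (x axis, Ti minus Ctrl, log2) of the 6 lists with the highest and the 6 with the lowest median organ difference at 10 days, the 4 added lists left out, with brown circles for roots, green triangles for shoots, open symbols for 3 days and filled symbols for 10 days. Root and shoot symbols of heat shock genes are close at 3 days, at -0.25 in roots and -0.35 in shoots, and far apart at 10 days, at 0.98 in roots and -0.83 in shoots.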

How the data were processed

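RNA of roots and of shoots was sequenced from seedlings grown with Ti or as Ctrl, with 3 libraries in each group. Per the study's methods, the authors checked reads with FastQC 0.11.9, trimmed them with Trim Galore 0.6.6 and cutadapt, quantified transcripts with kallisto 0.44.0 against Araport11, summed them per gene with tximport and fitted roots and shoots separately in edgeR. The authors deposited log2 CPM values, which are the fitted level of a group repeated in its 3 columns. These values hold no replicate spread and no counts. The study describes its libraries in supplementary tables that were not used here, so the depth was not examined. No test was run, and no p-value can be given. How transcripts of unequal length were recovered in each library could affect the values and was not examined.

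The values were used as deposited, with Python 3.11.15, pandas 2.3.3 and numpy 2.4.6, and plotted with matplotlib 3.10.9. CPM was taken as the power of 2 of the deposited value. Genes with at least 5 CPM in Ctrl at 10 days in both organs were kept, and a limit of 0.5 on the organ difference was used to count genes. The steps were tested on simulated data. Gene names, transcript lengths, process terms and windows upstream of genes came from the TAIR10.1 RefSeq annotation, in which all 12943 genes had a record. Loci sharing sequence were found with blastn 2.17.0, as hits of 95% identity or more that cover 30% or more of the longest transcript.

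The genes and the function lists were chosen with earlier results of these data known. After the files had been read, patterns of the ribosomal lists were corrected, non-members were removed from the histone, Aux/IAA and photosystem lists by product name, and 4 lists were added: HSP20-type small chaperones, DnaJ co-chaperones, endoplasmic reticulum chaperones and MRP-type ABC transporters. Genes were named by rule: the 12 highest and 12 lowest organ differences, up to 4 genes in the direction of each of the 6 highest and 6 lowest lists of at least 4 genes, list genes beyond 1, and the gene farthest against each of those lists. Other genes are named as examples of a list, and those of the added lists and with opposite values in the organs were chosen after their values were seen. Alternatives were floors of 1 and 20 CPM, a floor on the mean of Ti and Ctrl, pseudocounts of 1 and 0.1 CPM, centring or rescaling of the groups, leaving out genes with shared sequence, a limit of 1 and, chosen after seeing the data, centring on genes of like transcript length.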

Additional observations from a re-analysis of the deposited data

Results flagged for a closer look

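At 10 days 24 genes had a log2F.C. of over 0.5 in opposite directions in roots and shoots, and they are listed with their organ difference (log2). Each group gives 1 fitted value, so the difference between the organs was not tested for any of them. Higher in Ti roots and lower in Ti shoots were 19 genes. Those with a role in heat shock or as chaperones, a grouping made after their values were seen, were HSP101 (2.51), the heat shock factor HSFA2 (2.50), the DnaJ genes AT2G20560 (2.48) and AT1G72416 (1.701), HSP23.5 (2.25), HSP90-1 (2.24), the co-chaperones BAG6 (1.81) and Fes1A (1.43), the heat-induced coactivator MBF1C (1.42) and HSP70T-2 (1.38). The list of heat shock genes had medians of 0.98 in roots and -0.83 in shoots and is named for the same reason, with a median organ difference of 1.496. The other genes on this side were AT1G73600 (1.75), the abscisic acid receptor gene PYL6 (1.60), the glucosinolate genes CYP79F2 (1.56) and IPMI-SSU3 (1.499), AT3G23510 (1.44), the stress transcription factor gene DREB2A (1.42), AT1G51340 (1.38), LpxC1 (1.196) and the sucrose synthase gene SUS1 (1.12). AT3G23510 and LpxC1 share sequence with near-identical loci, and the summed CPM of the copies gave 0.56 and 0.18.

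Lower in Ti roots and higher in Ti shoots were 5 genes: WRKY22 (-2.11), GRP3S (-1.57), AT2G05540 (-1.40), RTFL16 (-1.18) and AT1G49500 (-1.02). At 3 days the log2F.C. of WRKY22 was -0.25 in roots and 0.36 in shoots, while GRP3S was higher with Ti in both organs, by 0.33 in roots and 0.26 in shoots.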

How the results depend on the processing

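No paired analysis was possible because the 3 columns of each group hold 1 fitted value, and for the same reason leaving out a replicate and the replicate block were not run. The genes counted above 0.5 and below -0.5 numbered 1067 and 1068 with Ctrl at 1 CPM or more, 265 and 194 with Ctrl at 20 CPM or more, and 86 and 40 with a limit of 1, as a looser or stricter limit is bound to give. Rescaling each group to the same total gave 678 and 455, so that 59.8% of the counted genes were above, against 49.1% as reported. With the length-centred organ difference, an alternative chosen after seeing the data, 477 were above and 356 below, so that 57.3% were above. Length-centring brought the histone median to -0.10 and turned the median of cytosolic ribosomal protein genes to 0.0083. The elongation list had a median of -0.46 with Ctrl at 1 CPM or more, and the ferritin list had -0.12 at 3 days when 5 CPM was asked at 3 days as well. Under the alternatives, 100 medians of the 12 lists moved by less than the robust standard deviation of 0.27 and 2 by more. The same held for 390 medians of the other lists, except that 1 moved by more and 1 turned in sign, and for 690 values of named genes, with 7 exceptions. Large organ differences were most frequent among low genes: 13.1% were beyond 0.5 where the lower Ctrl level was 5 to 10 CPM, against 6.80% to 8.66% above 10 CPM. For the other shifts the cause was not tested.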
